A study of Rattus norvegicus with 4 samples.

Results

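Pmp22 and the Emp genes Emp1, Emp2 and Emp3 were examined in RNA-Seq data of unmodified rat Schwann (S16) cells. The 4 members were taken by their symbols from the 30708 genes listed in each library, and all 4 passed the minimum of a mean of 1 RPKM, which 11025 genes passed. RPKM counts reads for each kilobase of a gene and each 1000000 reads of the library, so levels of different genes can be set side by side. S16 cells are an immortalized line of rat Schwann origin, and the labels call their source a myelinating Schwann cell. One population was at passage 9, and it was the parental line of enhancer deletion mutants that are not analysed here. The other population was at passage 39. Both populations were unmodified, were grown in standard medium with L-glutamine and were extracted from a confluent flask. Each passage was 1 population with 2 libraries labelled technical replicates, here called library 1 and library 2, so a difference between the passages has no replicate check and was not tested. The library totals recovered from the values were between 34246093 and 41382234 reads. The authors describe pooling the technical replicates and sequencing them over 2 lanes. How the library numbers relate to that pooling and to the lanes was not known here. The authors give a lower number of reads per cell line, and the gap was not resolved here.

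Pmp22 encodes peripheral myelin protein 22, a small glycoprotein that crosses the membrane 4 times and sits in the compact myelin that Schwann cells wrap around axons. Its dosage matters in peripheral nerve, since duplication of the gene causes the most common demyelinating form of Charcot-Marie-Tooth disease and loss of a copy causes a neuropathy with liability to pressure palsies. The epithelial membrane proteins encoded by Emp1, Emp2 and Emp3 share its fold and are known from epithelia and many other tissues, where they are studied for growth, adhesion and the surface level of integrins and receptors.

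The bases before the annotated start of Pmp22 and of Emp3 are shown, because Pmp22 had the highest level of the 4 genes and Emp3 differed most between libraries. Both sequences came from the RefSeq promoter table for the GRCr8 build, in which all 4 members were matched, whereas the authors aligned to rn5. Each holds the 250 bases before the start, read from 5′ to 3′. The Pmp22 sequence lies at chr10:48294682-48294931 on the plus strand and the Emp3 sequence at chr1:105528266-105528515 on the minus strand. Capitals mark ACAAA or ACAAT or ACACA, letters found in SOX monomer sites, for Pmp22, and GGGCGG (the GC box) and TATAAA for Emp3, on either strand.
Pmp22: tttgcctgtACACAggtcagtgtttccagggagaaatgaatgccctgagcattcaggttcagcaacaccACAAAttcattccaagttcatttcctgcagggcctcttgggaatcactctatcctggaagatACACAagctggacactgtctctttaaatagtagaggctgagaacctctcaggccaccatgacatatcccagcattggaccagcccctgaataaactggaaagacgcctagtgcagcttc
Emp3: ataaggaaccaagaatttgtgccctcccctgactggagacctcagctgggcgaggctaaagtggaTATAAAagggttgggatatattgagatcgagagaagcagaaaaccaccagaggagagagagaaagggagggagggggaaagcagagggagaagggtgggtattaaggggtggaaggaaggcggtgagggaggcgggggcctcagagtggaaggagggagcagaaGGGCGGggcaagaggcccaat
The Pmp22 sequence held 3 SOX matches, which began 241, 181 and 119 bases before the start. At least 3 such matches were present in 27.1% of 33469 rat promoters of this length and at least 1 in 71.1%, so these letters are common. The authors also counted ACAAG as a SOX10 monomer sequence, but it was not searched here, and these counts and shares leave it out. It stands unmarked in the Pmp22 sequence, overlapping the match at 119 bases. The letters GGAATG, which TEAD factors are known to bind, were present once in Pmp22, on the other strand and 174 bases before the start, and in 12.1% of promoters. The window of Emp1 held the same counts, with 3 SOX matches, some of them overlapping, and 1 TEAD match. Emp2 and Emp3 held 1 SOX match each and no TEAD match. No match of the searched letters overlapped another in the Pmp22 and Emp3 sequences. In Emp3 the GC box began 21 bases and TATAAA 185 bases before the start. The GC box was present in 30.5% and TATAAA in 12.9% of promoters. The EGR letters GCGNGGGNG were in none of the 4 members' windows and in 9.40% of promoters. The AP-1 letters TGANTCA were absent from the windows of Pmp22 and Emp3, present 2 times in that of Emp1 and once in that of Emp2, and present in 6.34% of promoters. Pmp22 had 1 CpG in its window and Emp2 had 17, against a median of 5. Pmp22 is known to be transcribed from alternative promoters, and this window stands before the single start in the table.

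The labelled cell type was checked against marker genes. All 8 Schwann cell markers were at 1 RPKM or more in all 4 libraries. Their summed level was between 667.9 and 809.5 RPKM, lower in the libraries numbered 2. Of 7 fibroblast markers, 4 passed the minimum, with a sum between 3455 and 3955 RPKM that was nearly all Col1a1, a collagen chain. Col3a1 was between 48.5 and 82.8 RPKM, near the level of the Schwann cell marker Mag at 60.2 to 78.4 RPKM, Pdgfrb between 21.4 and 23.9 RPKM and Pdgfra between 4.62 and 6.16 RPKM. Thy1 was listed at 0 in every library and Dcn was at 0.0132 RPKM in 1 library and listed at 0 in the others. The endothelial markers summed to at most 0.418 RPKM (0 of 4 passed, Cdh5 and Kdr at 0), the macrophage markers to at most 1.62 RPKM (1 of 5 passed, Ptprc and Itgam at 0), the epithelial markers to between 3.34 and 3.69 RPKM (1 of 5 passed) and the neuronal markers to at most 0.0258 RPKM (0 of 4 passed).

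The libraries grouped by their number rather than by passage, since 121 genes of 11025 were 2-fold apart between the libraries numbered 2 and those numbered 1, and 1 gene between the passages. Crossed passage or replicate labels and a difference between libraries of one population cannot be told apart in these data, so the passages and their SD are given as labelled, with the values by library number beside them.

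Pmp22 was among the most abundant transcripts of S16 cells, with a mean of 1255 ± 5.46 RPKM (SD, n = 2 populations) and a rank of 15 among all listed genes. Passage 9 gave 1225 RPKM in library 1 and 1293 in library 2, and passage 39 gave 1216 and 1287 RPKM. Both libraries numbered 2 lay above both numbered 1 as deposited, an order that turned round under the other two scalings given further on, and the passages overlapped. These values rested on between 89298 and 113377 reads, or between 0.261% and 0.277% of a library. The exact 95% interval of the lowest library was 1208 to 1224 RPKM and that of the highest was 1285 to 1301 RPKM. Such intervals hold counting error alone, because reads that carry no molecular identifier may be copies of one molecule. In bulk RNA of this kind, fewer cells with a transcript and less transcript per cell cannot be told apart.

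Emp3 was the most abundant of the 3 Emp genes, at 300.1 ± 4.12 RPKM (SD, n = 2 populations). Its level was 250.4 RPKM in library 1 and 355.7 in library 2 of passage 9, and 244.8 RPKM in library 1 and 349.6 in library 2 of passage 39. The level of Emp3 thus split by library number and not by passage. The SD over the 4 libraries was 60.8 RPKM, far above the 4.12 RPKM between the population means, which rest on the passage labels. By library number the means were 247.6 and 352.7 RPKM. The exact 95% intervals of the libraries numbered 1, at 243.0 to 258.0 and 236.7 to 253.1 RPKM, lay apart from those of the libraries numbered 2, at 346.1 to 365.6 and 340.8 to 358.7 RPKM. Emp3 had fewer recovered reads than the other members, between 3471 and 5947, with a recovered gene length of 414 bp. Reads and length were taken as the least integers that yield the 4 values. If both were larger by a common factor, the RPKM would be the same and these intervals narrower. The order of the members by reads could then differ, so it is not a firm result.

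Emp1 was at 195.2 ± 1.73 RPKM (SD, n = 2 populations), below Emp3 and above Emp2 in every library. Passage 9 gave 185.5 RPKM in library 1 and 202.4 in library 2, and passage 39 gave 187.4 and 205.4 RPKM. The libraries numbered 2 were the higher ones as deposited, but not after sum rescaling. Emp2 was the lowest of the 4, at 70.7 ± 0.623 RPKM (SD, n = 2 populations). Passage 9 gave 68.2 RPKM in library 1 and 72.3 in library 2, and passage 39 gave 69.2 and 73.1 RPKM. Even so, Emp2 stood above 91.6% of the genes that passed the minimum, and Emp1 above 98.1% of them.

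The order Pmp22, Emp3, Emp1, Emp2 held in all 4 libraries, and within a library no exact 95% intervals of neighbours in this order overlapped.

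**Figure D1:**
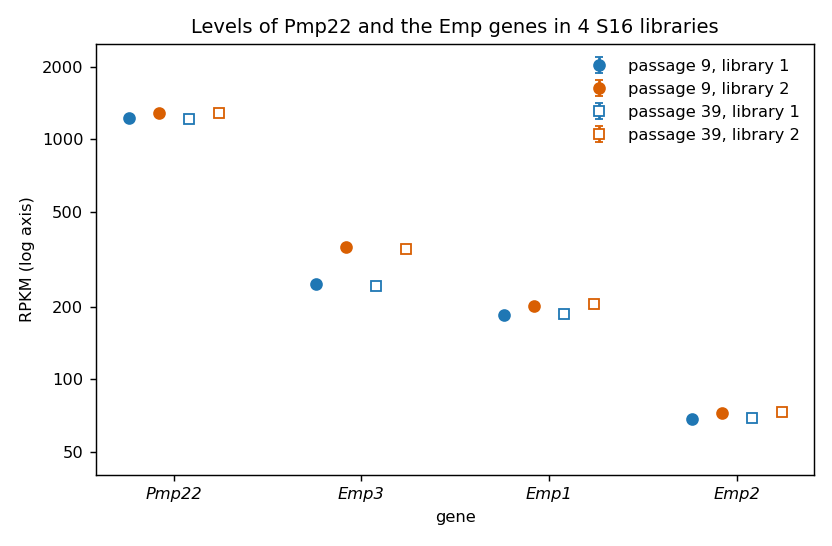
RPKM (log axis) of the 4 genes in each of the 4 S16 libraries, with filled circles for passage 9, open squares for passage 39, blue for library 1 and orange for library 2; bars are exact 95% counting intervals and are mostly smaller than the symbols. Pmp22 lies at 1216 RPKM or more in every library, and Emp3 is the gene whose blue and orange symbols stand apart, with means of 247.6 and 352.7 RPKM.

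Set against Pmp22 in the same library, where the library total cancels out, the Emp genes made up a lesser but uneven part of the family. Pmp22 gave between 67.2% and 70.8% of the summed RPKM of the 4 genes, with 70.8% in both libraries numbered 1 and 67.2% in both numbered 2. The share of Emp3 was 14.5% and 14.3% in the libraries numbered 1 and 18.5% and 18.3% in those numbered 2. The share of Emp1 was between 10.5% and 10.9%, and that of Emp2 between 3.76% and 4.03%. Of the 4 shares, that of Emp3 differed most between library numbers for its size.

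Emp2 kept the most even ratio to Pmp22, being 17.6- to 18.0-fold below it. The ratio was 0.0557 and 0.0559 in libraries 1 and 2 of passage 9 and 0.0569 and 0.0568 in those of passage 39, and all 4 exact 95% intervals overlapped. The ratio of Emp1 to Pmp22 was 0.152 and 0.157 at passage 9 and 0.154 and 0.160 at passage 39, for libraries 1 and 2. It was higher in library 2 of each passage, although the interval of library 2 of passage 9, 0.154 to 0.159, overlapped that of library 1 of passage 39, 0.152 to 0.157. The ratio of Emp3 to Pmp22 was 0.204 and 0.275 at passage 9 and 0.201 and 0.272 at passage 39, for libraries 1 and 2. Its intervals in the libraries numbered 1, together from 0.195 to 0.211, were well apart from those in the libraries numbered 2, from 0.265 to 0.283. Emp3 thus stood between 3.64- and 4.97-fold below Pmp22, depending on the library.

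The first comparison of the design was between the passages as labelled, and between these none of the 4 genes differed beyond counting error. If the labels were crossed, these ratios would be between technical replicates and the ratios by library number between passages. Passage 39 over passage 9, Pmp22 had a ratio of 0.993 for library 1 (exact 95% interval 0.984 to 1.002) and 0.995 for library 2 (0.986 to 1.004). Emp1 had ratios of 1.010 (0.991 to 1.030) and 1.015 (0.996 to 1.034). Emp2 had ratios of 1.015 (0.984 to 1.047) and 1.010 (0.981 to 1.041). Emp3, with the widest intervals by the recovered reads, had ratios of 0.978 (0.935 to 1.023) and 0.983 (0.947 to 1.020). All 8 intervals held 1, and the widest of them leaves room for a ratio between 0.935 and 1.023. As log2(RPKM + 1), the differences between the passage means were -0.0089 for Pmp22, 0.018 for Emp1, 0.018 for Emp2 and -0.029 for Emp3, against a median of -0.0018 over the 11025 genes. Larger differences in either direction were found for 82.2% of the genes in the case of Pmp22 and for 48.1% in the case of Emp3. No member was 2-fold apart between the passages, and 1 gene of the 11025 was (0.00907%). Both libraries of one passage lay above both of the other for 0 of 4 members as deposited, and for 6.21% of all genes. After rescaling to a common RPKM sum Emp1 met this criterion, as did 7.88% of all genes, and after median-ratio scaling Emp2 did, as did 7.22% of all genes.

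The other comparison was between the libraries numbered 2 and those numbered 1, and here Emp3 stood out from the other members. Library 2 over library 1, Emp3 had a ratio of 1.421 at passage 9 (exact 95% interval 1.364 to 1.480) and 1.428 at passage 39 (1.369 to 1.490). Emp1 had ratios of 1.091 (1.070 to 1.112) and 1.096 (1.075 to 1.117). Pmp22 had ratios of 1.056 (1.047 to 1.065) and 1.058 (1.049 to 1.068). Emp2 had ratios of 1.061 (1.029 to 1.093) and 1.056 (1.024 to 1.089). Each gene gave nearly the same ratio at both passages. The median ratio of all genes that passed the minimum was 1.075 at passage 9 and 1.071 at passage 39, so the ratios of Pmp22, Emp1 and Emp2 stood close to that of a typical gene. By the labels these ratios compare technical replicates, and whether they compare the passages instead cannot be told apart here.

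**Figure D2:**
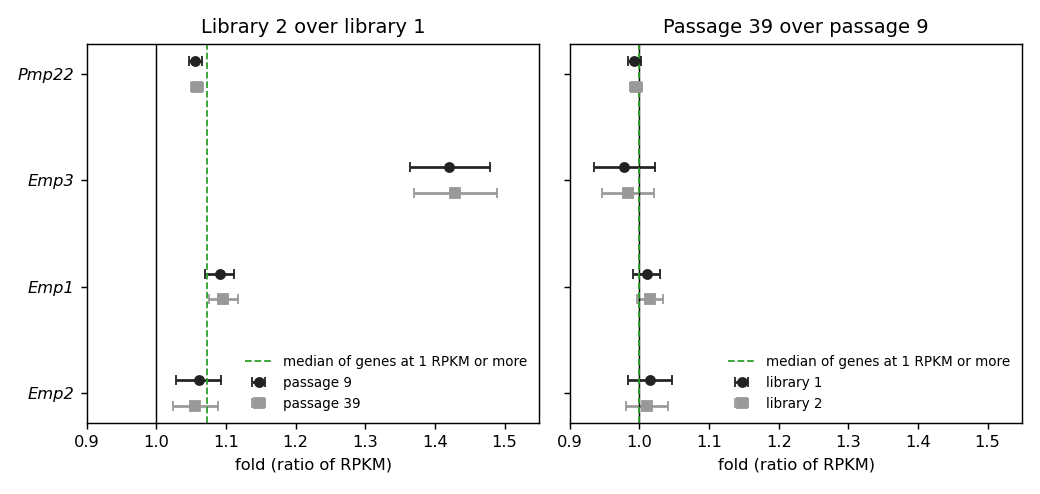
Ratios of RPKM with exact 95% counting intervals for library 2 over library 1 within each passage (left, black for passage 9 and grey for passage 39) and for passage 39 over passage 9 within each library number (right, black for library 1 and grey for library 2); the solid line is at 1 and the dashed green line at the median of genes that passed the minimum. On the right all intervals hold 1, and on the left those of Emp3 run from 1.364 to 1.490 while no other member exceeds 1.117.

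The libraries numbered 2 also had larger RPKM sums (by 1.11-fold at passage 9 and 1.10-fold at passage 39), and the median log2 difference of all genes moved with the scaling. It was 0.10 as deposited, -0.023 after each library was rescaled to the mean RPKM sum and 0.027 after median-ratio scaling. As deposited, both libraries numbered 2 lay above both numbered 1 for 4 of 4 members and for 57.2% of all genes, and below for 0 of 4 members and 30.5% of all genes. After rescaling to the sum, 1 member lay above (Emp3), 2 lay below (Pmp22 and Emp2) and Emp1 overlapped, with 37.7% of all genes above and 46.3% below. After median-ratio scaling, Emp3 and Emp1 lay above, Pmp22 lay below and Emp2 overlapped, with 45.8% of all genes above and 39.4% below. The direction of Pmp22, Emp1 and Emp2 therefore changed with the scaling, and that of Emp3 did not under the 3 scalings.

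Relative to the median of all genes, the log2 difference of Pmp22 was -0.024 as deposited, -0.043 after sum rescaling and -0.036 after median-ratio scaling. Emp2 was close to it, at -0.023, -0.041 and -0.035. Emp1 was at 0.024, 0.0054 and 0.012. These 3 genes thus lay within 0.05 of the median of all genes on the log2 scale. Emp3 was at 0.40, 0.39 and 0.39 above that median, and 4.94% of the 11025 genes had a higher difference than its 0.51. No member reached a 2-fold difference between library numbers, which 1.10% of the genes did.

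**Figure D3:**
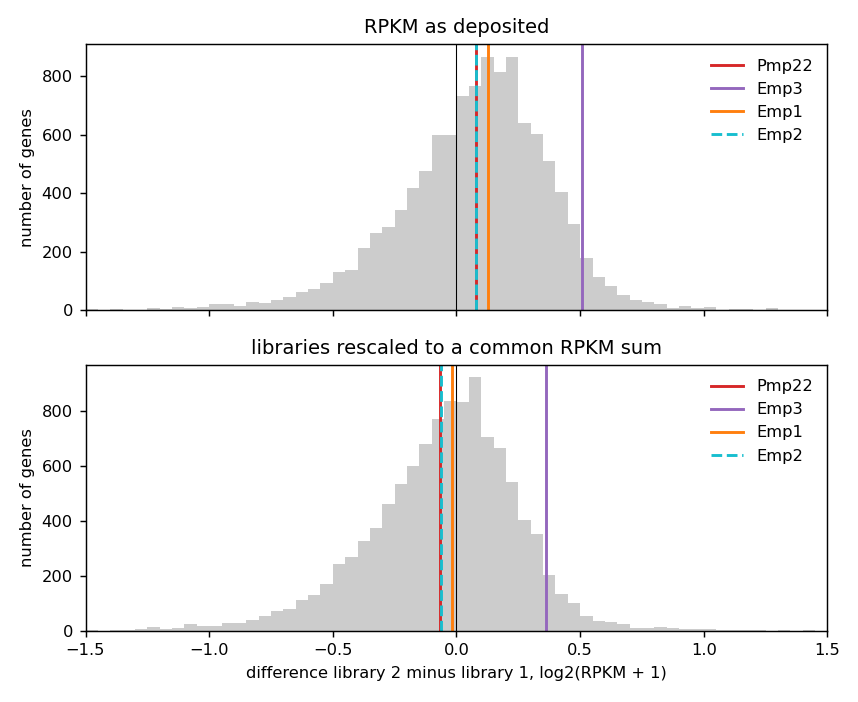
Number of genes by their log2(RPKM + 1) difference between library 2 and library 1, averaged over the passages, for the 11025 genes that passed the minimum, with RPKM as deposited (top) and after rescaling to a common sum (bottom). Vertical lines mark the members, with Pmp22 and Emp2 drawn over each other at 0.08 and -0.07 to -0.06; Emp3 lies in the upper tail of both panels, at 0.51 and 0.36.

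The difference between library numbers varied with gene length. The median log2 difference was 0.28 in the shortest of 20 bins of genes by recovered length and -0.22 in the longest. Emp3 fell in the shortest bin, which ran from 5 to 635 bp. Recovered lengths are the least that yield the values, so this bin may hold genes whose real length is greater. Relative to its bin the log2 difference of Emp3 was 0.23, and 13.9% of the 552 genes in that bin had a higher difference. At 2 times the recovered length, 828 bp, the value was 0.24 and 9.98% of the genes of that bin were higher. Relative to genes of their own recovered length, Pmp22 was at -0.079, Emp1 at 0.014 and Emp2 at -0.034. The log2 difference of Emp3 was thus lower against genes of its own recovered length than against all genes. The part of gene length in it was not tested.

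**Figure D4:**
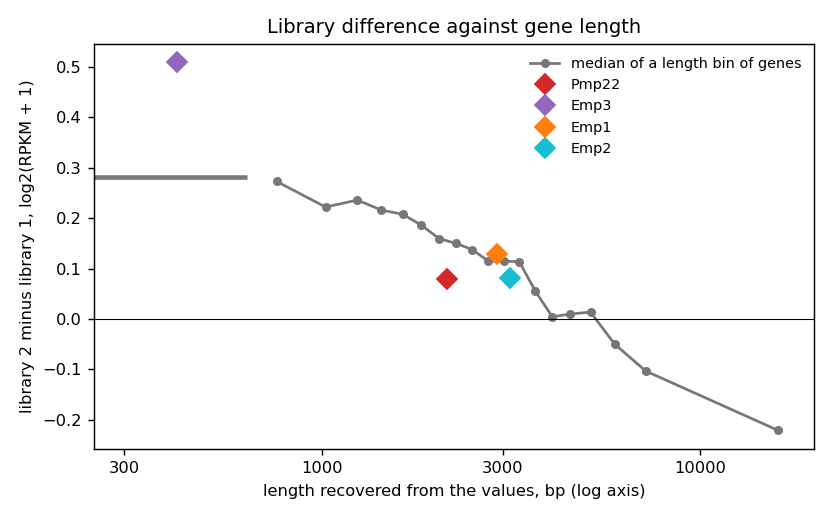
Log2(RPKM + 1) difference between library 2 and library 1 against the gene length recovered from the values (log axis, bp). Grey circles are the medians of length bins, placed at the middle of each bin. The grey bar is the shortest bin, which runs from 5 to 635 bp and is drawn only in part. The medians run from 0.28 to -0.22, and Emp3 lies above the bar while the other members lie within 0.08 of the line.

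Regulators of Pmp22 were measured next to it. SOX10, the factor that directs Schwann cell identity, activates Pmp22 in Schwann cells together with EGR2, the myelination factor whose activity the NAB proteins modify. YAP1, TAZ (encoded by Wwtr1) and TEAD1 form a further activating group. Of the 8 genes of this list, 7 passed the minimum, and Pou3f1, a factor of the promyelinating stage, was listed between 0.118 and 0.172 RPKM. As deposited, 4 were higher and 3 were lower in the libraries numbered 2 than in both numbered 1, and none was 2-fold apart, beside 57.2% of all genes higher and 30.5% lower. The counts were 3 higher and 4 lower after sum rescaling (all genes 37.7% and 46.3%) and 3 higher and 3 lower after median-ratio scaling (45.8% and 39.4%), so these counts were near those of all genes. Passage 9 gave Sox10 at 174.5 RPKM in library 1 and 183.0 in library 2, and passage 39 gave 170.7 and 176.1 RPKM, so that library 2 was the higher as deposited but the lower after sum rescaling, with overlap after median-ratio scaling. The ratio of Pmp22 to Sox10 was hence even, at 7.02, 7.07, 7.12 and 7.31 in the 4 libraries in the same order.

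Egr2 had 5.90 RPKM in library 1 and 10.5 in library 2 of passage 9, and 6.21 and 11.0 RPKM for passage 39. Nab2 had 19.1 and 25.8 RPKM and then 19.5 and 25.6 RPKM, and Nab1 also had its higher values in library 2, under all 3 scalings. Wwtr1 lay the other way, with 82.0 and 60.1 RPKM and then 85.6 and 62.6 RPKM, and Tead1 and Yap1 were likewise lower in library 2 under all 3 scalings. The regulators thus lay on both sides of Pmp22, whose own difference was near the median. The median log2 difference of the 7 regulators was 0.056 as deposited, against 0.10 for all genes.

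Partners of the family at the membrane were mostly lower in the libraries numbered 2, unlike Pmp22 as deposited. The list holds the integrins with which PMP22 and EMP2 associate, and CD44 and the TGF-beta receptor, which are linked with EMP3. Of 12 genes, 11 passed the minimum, and of these 8 were lower, 2 were higher and 1 overlapped as deposited, beside 30.5% of all genes lower and 57.2% higher. Sum rescaling gave 9 lower and 1 higher (all genes 46.3% and 37.7%), and median-ratio scaling 9 lower and 2 higher (39.4% and 45.8%). The median log2 difference was -0.23 as deposited, against 0.10 for all genes. This list and the others were not set against genes of their own length, with which the difference between library numbers varied. Itgb4, the partner of Itga6 in an integrin that binds laminin, was listed at no more than 0.737 RPKM and did not pass the minimum.

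Itga6 had 158.5 RPKM in library 1 and 114.8 in library 2 of passage 9, with nearly the same pair of values at passage 39. A 2-fold difference between library numbers was present for Itgb3, which was lower in library 2 (log2 difference -1.08), and for Cav1, the caveolin whose level EMP2 is known to affect, which was higher (1.04). After sum rescaling these values were -1.22 and 0.90, so that Cav1 was no longer 2-fold apart. Cav1 had 9.53 RPKM in library 1 and 20.5 in library 2 of passage 9, and 9.52 and 20.7 RPKM for passage 39, while Emp2 differed by 0.081 on the log2 scale.

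Genes listed for the folding and quality control of PMP22 had a median log2 difference of 0.19 as deposited. Of 7 genes, 6 passed the minimum, 4 were higher and 1 was lower in the libraries numbered 2 as deposited, none 2-fold, and Hspa1a did not pass. The count of 4 of 6 higher was near the 57.2% of all genes. After both rescalings 4 were higher and 2 were lower, beside 37.7% and 45.8% of all genes higher. The 4 higher genes, under all 3 scalings, were Rer1 (a retrieval receptor), Syvn1 (a ubiquitin ligase of the endoplasmic reticulum), Hsf1 (the heat shock factor) and Hsp90aa1. Canx, the chaperone that binds the sugar of PMP22, had 243.6 RPKM in library 1 and 239.4 in library 2 of passage 9, and 252.4 and 244.2 RPKM for passage 39, so that it overlapped as deposited and was lower in library 2 after both rescalings.

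Genes listed here for the segment around PMP22 that is duplicated in Charcot-Marie-Tooth disease were low or absent beside Pmp22. Whether each of them lies within that segment was not checked. Of 7 genes of that list, 5 were matched by symbol. Beside 11025 of all 30708 listed genes, 1 of these 5 passed the minimum. This was Tvp23b, a Golgi membrane protein gene, with 11.5 RPKM in library 1 and 12.4 in library 2 of passage 9, and 11.1 and 11.9 RPKM for passage 39. Tekt3 was at most at 0.0977 RPKM, Hs3st3b1 at 0.849 RPKM and Trim16 at 0.379 RPKM, and Cdrt4 was above 0 in 1 library. Tvp23c and Cox10 were not analysed here.

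Transcripts of the listed relatives with the same tetraspan fold, among which the claudins were not counted, were low in S16 cells. Of these 17 genes, 3 passed the minimum, beside 11025 of all 30708 listed genes. Listed at 0 in all 4 libraries were 9 of the 17. Of all 30708 genes, between 17552 and 18018 were above 0 in a single library. The highest was Cacng4, an auxiliary subunit of glutamate receptors, with 3.05 RPKM in library 1 and 1.13 in library 2 of passage 9, and 3.23 and 1.14 RPKM for passage 39, a log2 difference of -0.96 that became -1.05 after sum rescaling. The other relatives that passed were Tmem235 and Tmem204, between 0.830 and 2.05 RPKM. All 17 together summed to between 4.45 and 7.14 RPKM, whereas Pmp22 and the Emp genes summed to between 1717 and 1924 RPKM.

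Most Schwann cell markers differed between library numbers in the direction opposite to Emp3. Of 8 markers, 6 were lower and 2 were higher in the libraries numbered 2 as deposited, with 7 lower after sum rescaling and 6 after median-ratio scaling, beside 30.5%, 46.3% and 39.4% of all genes lower. The 2 higher as deposited were Sox10 and Egr2. Egr2 was higher under all 3 scalings, with log2 differences of 0.73, 0.60 and 0.66. S100b, a calcium binding protein gene of glia, was the marker that was 2-fold lower, with 85.7 RPKM in library 1 and 31.8 in library 2 of passage 9. The median log2 difference of the markers was -0.41 as deposited, -0.55 after sum rescaling and -0.50 after median-ratio scaling. Mbp and Mag, which also belong to myelin, were lower under all 3 scalings, whereas Pmp22 was higher as deposited and lower after both rescalings, with log2 differences of 0.080, -0.067 and -0.0095. Among the epithelial markers, Krt8 had 1.46 and 2.81 RPKM and Cdh1 had 1.15 and 0.175 RPKM in libraries 1 and 2 of passage 9, and Epcam was between 0.640 and 0.800 RPKM. The part of these markers in the values of the Emp genes was not tested. The Schwann cell markers were also not set against genes of their own length.

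**Figure D5:**
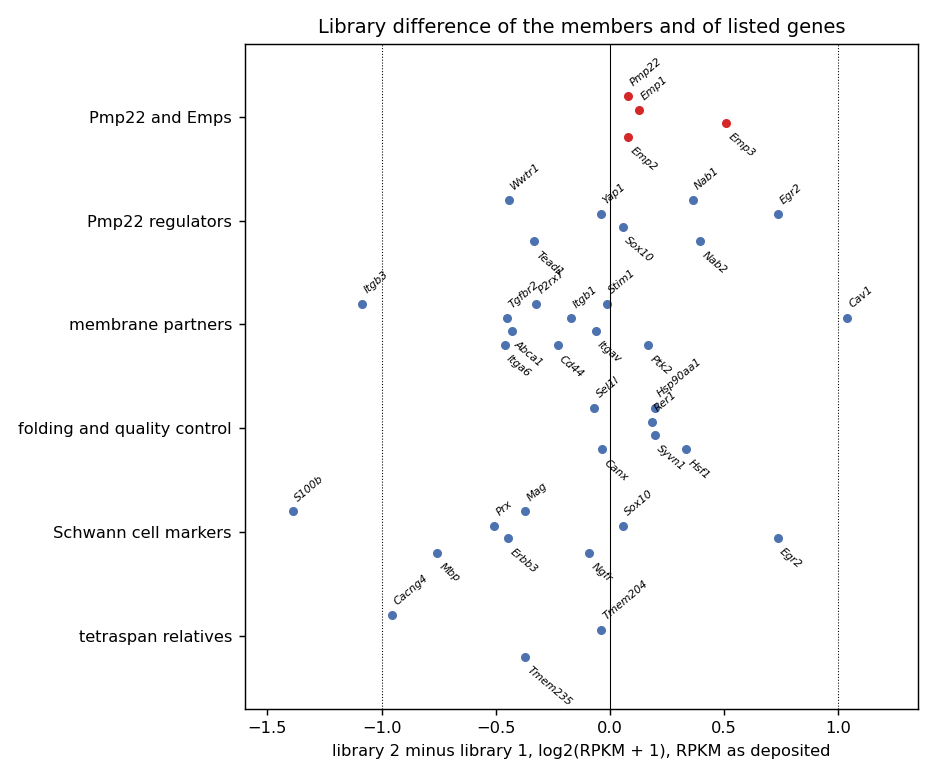
Log2(RPKM + 1) difference between library 2 and library 1, RPKM as deposited, for the 4 members (red) and for listed genes that passed the minimum (blue), 1 point per gene and with vertical offsets that only keep the names apart; dotted lines mark 2-fold. The members lie between 0.08 and 0.51, while most partners and Schwann cell markers lie below 0, as far as -1.39 for S100b, and after sum rescaling Pmp22, Emp1 and Emp2 lie below 0 as well.

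The 3 genes with the profile most like that of each member were found by the distance between log2(RPKM + 1) values, centred per gene, over the 4 libraries, among genes within 4-fold of the level of the member. For Pmp22 they included Sept2, a septin, at a distance of 0.013 and Tubb5, a beta-tubulin, at 0.018, against a median distance of 0.26 over 104 candidates. For Emp1 they were Eef1a1, a translation elongation factor, at 0.0027, Hdac2, a histone deacetylase, at 0.0033, and Gna11, a G protein subunit, at 0.011. For Emp2 they were Ddx19a at 0.0062, Poldip3 at 0.0094 and Hoxb3 at 0.0097. For Emp3 they were LOC691807 at 0.013, Rpl4, a ribosomal protein of the large subunit, at 0.017, and Gnb2l1, which encodes the ribosomal scaffold RACK1, at 0.022, against a median of 0.29 over 848 candidates. With 4 libraries in 2 numbered groups, these distances mostly rank genes by the size of their difference between library numbers.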

How the data were processed

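RNA was isolated from unmodified S16 cells with TRIzol, and poly(A)-selected TruSeq libraries were sequenced from a single end. Reads were checked with FastQC, aligned to rn5 with STAR, kept where uniquely mapped and counted per gene with HTSeq without strand. The authors deposited RPKM values, 1 per gene symbol, and the gene lengths and totals behind them were not given in the sources used here. The files point to RefSeq and the methods to Ensembl gene models. No count model was applied to RPKM. Totals, lengths and whole reads were recovered from the values (18113 of 18114 genes with at least 2 values above 0), for totals of 34246093 to 41382234 reads, and the recovery was tested on simulated data. Exact Clopper-Pearson 95% intervals of single libraries and conditional binomial intervals of ratios cover counting error only. They would be wider if the true reads were fewer than those recovered. The SD was taken over the 2 populations, each the mean of its 2 libraries. Differences were computed as log2(RPKM + 1), a pseudocount of 1 that understates changes of low genes, for genes whose mean reached 1 RPKM, with Python 3.11.15, numpy 2.4.6, pandas 2.3.3, scipy 1.17.1 and matplotlib 3.10.9. The members and lists were chosen with earlier results of these data known. Genes were named as members, as the highest or 2-fold genes of the lists, or as the 3 nearest profiles, and further genes of the lists are given as examples of their group. A few genes that these rules cover are not reported here, and the counts of the lists leave them out. Alternatives were 2 scalings, a pseudocount of 0.1, other minimums, a length correction and each library left out. Reads counted without strand in Pmp22 cannot be told apart from those of the overlapping LOC134480805 in the GRCr8 annotation.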

Additional observations from a re-analysis of the deposited data

How the results depend on the processing

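No paired analysis was possible because each passage was 1 population and no test was run. The levels of the members and their ratios to Pmp22 kept within the spread between libraries under every alternative run. With each library left out in turn, the level was 1237 to 1273 RPKM for Pmp22, 190.7 to 199.7 RPKM for Emp1, 69.7 to 71.7 RPKM for Emp2 and 273.8 to 326.5 RPKM for Emp3.

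The log2 difference of passage 39 minus passage 9 was -0.0040 after sum rescaling and -0.0054 after median-ratio scaling for Pmp22, and 0.023 after sum rescaling for both Emp1 and Emp2. With each library left out it ran from -0.050 to 0.032 for Pmp22, -0.048 to 0.084 for Emp1, -0.024 to 0.060 for Emp2 and -0.28 to 0.23 for Emp3. The sign turned for Pmp22 (0.030 and 0.032) and Emp3 (0.22 and 0.23) without library 2 of passage 9 or library 1 of passage 39, and for Emp1 (-0.045 and -0.048) and Emp2 (-0.024 and -0.021) without library 1 of passage 9 or library 2 of passage 39. These means then hold unequal mixes of library numbers.

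The log2 difference of library 2 minus library 1 was, after sum rescaling, median-ratio scaling and relative to genes of similar length, -0.067, -0.0095 and -0.079 for Pmp22, -0.018, 0.039 and 0.014 for Emp1, -0.064, -0.0079 and -0.034 for Emp2, and 0.36, 0.42 and 0.23 for Emp3, with 0.24 for Emp3 at 2 times its recovered length, an alternative chosen after seeing the data. With each library left out it ran from 0.075 to 0.085 for Pmp22, 0.12 to 0.14 for Emp1, 0.070 to 0.091 for Emp2 and 0.49 to 0.52 for Emp3. The number of genes 2-fold apart between passages, 1, was 0 at a 5 RPKM minimum and 4 at a pseudocount of 0.1, and that between library numbers, 121, was 253 with a pseudocount of 0.1. The number with both libraries numbered 2 above both numbered 1, 6302, was 4157 after sum rescaling, also chosen after seeing the data. Over all alternatives 58 values stayed within the spread between replicates, or for counts within 1.5 times, 38 moved by more and 15 changed sign.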

Other observations

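Among the genes within 60 kb of a member in the GRCr8 annotation, the neighbour of Emp3 named Kdelr1, which encodes a receptor that returns proteins to the endoplasmic reticulum, had a library difference like that of Emp3. Kdelr1 had 89.4 RPKM in library 1 and 123.7 in library 2 of passage 9, and 87.3 and 122.0 RPKM for passage 39, a log2 difference of 0.47. It was chosen after its values were seen. The other neighbours of Emp3 with a value were Tmem143, at 1.94 to 2.05 RPKM, and Grin2d, Syngr4 and Abcc6, which stayed below 1 RPKM. The neighbours of Pmp22, Emp1 and Emp2 with a value were Tekt3, Pbp2, Tekt5 and Atf7ip2, all at or near 0.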
